A study of Mus musculus with 20 samples.

Results

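The 44 genes described here, of 45777 in the expression table, encode the proteins that let calcium into the cytosol, release it from the endoplasmic reticulum and pump it out again. They were chosen by gene symbol as whole families: 10 pore-forming subunits of voltage-gated calcium channels (Cacna1), 4 α2δ subunits (Cacna2d), 4 β subunits (Cacnb), 3 ryanodine receptors (Ryr), 3 inositol trisphosphate receptors (Itpr), 3 pumps of the endoplasmic reticulum (Atp2a), 4 pumps of the plasma membrane (Atp2b), 2 STIM and 3 ORAI proteins of store-operated entry and 6 TRPV channels. The sodium-calcium exchanger gene Slc8a1 and the cytosolic calcium-binding protein gene S100g complete the group. In uterine smooth muscle, voltage-gated channels carry the calcium that starts a contraction, receptors of the endoplasmic reticulum add calcium from the store, and pumps and the exchanger end the signal. In the uterine epithelium, TRPV6, S100g and the pumps of the plasma membrane move calcium across the cell, and S100g is a long-known target of ovarian steroids.

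Uterine RNA was sequenced from wild-type B6D2F1 females, 8 to 12 weeks old when mated, with 5 mice in each of 4 groups. From each mouse, 1 uterine horn was taken for RNA on the evening of day 3.5 after mating. Control mice received no treatment. The mice of the implantation failure (IF) group received a low subcutaneous dose of RU486, an antagonist of progesterone and glucocorticoid receptors, on the morning of day 3.5. The PBMC and PBMC-hCG groups received the same RU486 and, on day 1.5, an injection into both horns of peripheral blood mononuclear cells from non-pregnant mice, cultured without or with human chorionic gonadotropin (hCG). Mice injected with medium and no cells were not analysed here, so that the cells and the injection cannot be told apart. A whole horn mixes muscle, stroma, epithelium and vessels. Expression was given in TPM, a scale corrected for transcript length. Library totals lay between 999989 and 999999, so that the sequencing depth is unknown. Gene IDs and positions are those of the RefSeq annotation of GRCm38.p6, in which 44 of the 44 genes were found.

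S100g was the most abundant of these genes, with 1184 ± 275 TPM in the control group (mean ± SD, n = 5), ahead of the muscle and reticulum pump Atp2a2 with 138 ± 28.1 TPM. Another 22 genes had a highest group mean of at least 10 TPM, which made 24 in all, while 14 genes stayed under 1 TPM in each group. The genes above 0 TPM in all 20 libraries could be tested, and 37 of the 44 were among these 18706 genes. The other 7 were the skeletal muscle channel Cacna1s, the retinal channel Cacna1f, the T-type channel Cacna1i, the plasma membrane pump Atp2b3, and Trpv1, Trpv3 and Trpv5, none of which exceeded 0.3095 TPM in any library. Genes were compared by limma on log2(TPM + 0.1) and called at a Benjamini-Hochberg adjusted p under 0.05, with all tested genes in the adjustment. The fold changes below are on that scale, which understates those of genes near 0.1 TPM. The p-values measure the spread between libraries of different mice. In whole tissue fewer cells of a type and less RNA per cell cannot be told apart. Control replicate 2 stood apart from the other libraries, with a median correlation of 0.963 with its own group, where every other library had at least 0.980.

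RU486 was followed by a rise of several voltage-gated channel subunits and of all 3 inositol trisphosphate receptors and by a fall of S100g and Slc8a1. Of the 37 tested genes, 15 were called between the IF and control groups by limma, against 21.9% of all tested genes. Of these, 12 were higher (13.4% of all genes) and 3 were lower (8.53% of all genes). The median log2 fold change was 0.09 over the members and 0.02 over all genes. With the 2 groups alone in the fit, 7 were called, 6 higher and 1 lower (12.8% of all genes), and with quantile normalization the split was 11 higher and 5 lower. The number of lower members was 1 without IF replicate 2, 4 or 5 and 5 without control replicate 2 or 5. In the PBMC group against control, 12 were called (19.5% of all genes), 11 higher (12.8%) and 1 lower (6.7%), with a median of 0.18 against 0.05 for all genes. The split became 8 and 3 with quantile normalization and with a common median, 9 and 2 among genes with a mean of at least 1 TPM, and 7 and 1 with the 2 groups alone in the fit. With 1 library left out it was 7 and 1 (without control replicate 1 or PBMC replicate 2 or 3), 7 and 2 (without PBMC replicate 1), 6 and 2 (without control replicate 4 or 5), 8 and 2 (without control replicate 3), 10 and 1 (without PBMC replicate 4 or 5) or 14 and 3 (without control replicate 2). The share of all genes called in these leave-one-out fits ran from 15.8% (without PBMC replicate 2) to 24.7% (without control replicate 2). In the PBMC-hCG group against control, 14 were called (31.8% of all genes), 13 higher (20.2%) and 1 lower (11.6%), with a median of 0.16 against 0.08. The number of lower members was 2 without control replicate 2, 3 or 4 or PBMC-hCG replicate 4, with quantile normalization and with a common median. These 3 comparisons share the control libraries.

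Between the treated groups fewer genes passed. For PBMC against IF, limma called 0 of the 37 members and 0% of all genes, while 4 members and 1271 of all genes had an unadjusted p under 0.05. For PBMC-hCG against PBMC, limma called 0 members and 0.0107% of all genes, and 3 members and 3024 of all genes had an unadjusted p under 0.05. For PBMC-hCG against IF, 7 members were called (13.6% of all genes), 6 higher (7.61%) and 1 lower (5.99%), with a median log2 fold change of 0.12 against 0.05 for all genes. These 7 calls rest on each of several mice: with any 1 of IF replicates 2, 4 and 5 or of PBMC-hCG replicates 2, 3, 4 and 5 left out, 0 members were called, and 10 (8 higher, 2 lower; 22.2% of all genes) were called without PBMC-hCG replicate 1. The loss was not particular to the members, since in the fits with 0 members at most 0.182% of all genes were called. Without IF replicate 1, 4 were called higher and 3 lower (12.5% of all genes). With no filter on low values 2 were called (2.65% of all genes), with no variance trend 4 (11% of all genes), with 0 lower in both fits, and with libraries scaled to a common median the split was 3 higher and 2 lower. Where a fold change of at least 2 and an unadjusted p under 0.05 were asked for instead, limma gave 2 members for IF against control (4.03% of all genes), 1 for PBMC against control (3.34%), 1 for PBMC-hCG against control (4.74%) and 0 for PBMC-hCG against IF (2.31%). A gene called in 1 comparison and not in another is not shown to differ between them, since that difference was not tested.

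Among the pore-forming subunits, the T-type channel gene Cacna1h (gene ID 58226, chr17:25374285-25436334), whose channel opens at low voltage, had the smallest adjusted p of all members between IF and control. Its level was 6.89, 6.16, 9.83, 8.51 and 7.28 TPM in control replicates 1 to 5 and 14.5, 12.9, 14.03, 14.2 and 10.4 TPM in the IF replicates. It was 14.6, 15.4, 14.8, 14.6 and 11.5 TPM in the PBMC group and 13.6, 11.4, 13.3, 12.3 and 14.8 TPM in the PBMC-hCG group. All 15 libraries of RU486-treated mice lay above the highest control library, and PBMC replicate 5 and IF replicate 5 were the lowest of their groups. The log2 fold change by limma was 0.77 (SE 0.124, adjusted p = 0.000186) for IF against control, 0.88 (SE 0.124, adjusted p = 7.02e-05) for PBMC and 0.76 (SE 0.124, adjusted p = 0.000171) for PBMC-hCG. It was called in each leave-one-out fit of these comparisons. The other T-type gene in use here, Cacna1g (gene ID 12291, chr11:94408391-94474400), measured 19.3, 8.75, 20.9, 21.7 and 10.6 TPM in the control group and 32.7, 21.96, 21.9, 32.5 and 23.7 TPM in the IF group. The PBMC libraries had 35.7, 35.9, 35.3, 27.9 and 33.3 TPM and the PBMC-hCG libraries 33.4, 22.5, 21.7, 19.1 and 27 TPM of it. All IF and PBMC libraries exceeded all control libraries, and 3 of 5 PBMC-hCG libraries did so. Control replicates 2 and 5 were the lowest libraries of the study. Cacna1g was higher than in control by a log2 fold change of 0.78 (SE 0.225, adjusted p = 0.0181) in IF, 1.13 (SE 0.225, adjusted p = 0.00145) in PBMC and 0.67 (SE 0.225, adjusted p = 0.0289) in PBMC-hCG in limma's fit. Its limma call for IF was lost without control replicate 5 (adjusted p = 0.0512), and with the 2 groups alone in the fit (0.0826). The call for PBMC-hCG was lost without any 1 of control replicates 2 and 5 and of PBMC-hCG replicates 1 and 5 (adjusted p 0.0615 to 0.0883), and with the 2 groups alone in the fit (0.0869).

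Cacna1c (gene ID 12288, chr6:118587240-119197384) encodes the L-type pore of smooth and heart muscle. It stood at 13.2, 16.5, 15.4, 13.9 and 13.99 TPM in the control libraries and 22.03, 16.1, 22.9, 18.9 and 19 TPM in the IF libraries. The PBMC group had 26.5, 23.2, 17.8, 15.1 and 17.6 TPM, and the PBMC-hCG group had 22.6, 18.8, 15.6, 18.4 and 19.5 TPM. IF replicate 2, PBMC replicate 4 and PBMC-hCG replicate 3 fell within the control range, and 4 of 5 libraries of each RU486 group lay above it. By limma the log2 fold change against control was 0.43 (SE 0.136, adjusted p = 0.0289) in IF, 0.43 (SE 0.136, adjusted p = 0.0315) in PBMC and 0.37 (SE 0.136, adjusted p = 0.0428) in PBMC-hCG. The first call was lost without any 1 of control replicates 1, 4 and 5 and of IF replicates 1 and 3 (adjusted p 0.0534 to 0.0714). The second was lost without any 1 of control replicates 1, 4 and 5 and of PBMC replicates 1 and 2 (adjusted p 0.0616 to 0.0927), and with the 2 groups alone in the fit (0.08). The last was lost without any 1 of control replicates 1, 3, 4 and 5 and of PBMC-hCG replicates 1, 2, 4 and 5 (adjusted p 0.0549 to 0.103), and with libraries scaled to a common median (0.0834), with no filter on low values (0.0664) and with quantile normalization (0.0863). Cacna1e (gene ID 12290, chr1:154390806-154884785), an R-type channel better known from neurons, was scarce at 0.555, 1.09, 0.631, 0.729 and 0.345 TPM in control and 1.24, 0.670, 2.36, 0.954 and 0.655 TPM in IF mice. It reached 1.11, 1.84, 1.28, 1.62 and 0.771 TPM in the PBMC group and 1.56, 2.05, 2.31, 1.997 and 2.55 TPM in the PBMC-hCG group, whose 5 libraries all lay above the control range. Its log2 fold change against control was 1.57 (SE 0.306, adjusted p = 0.000903) in PBMC-hCG and 0.91 (SE 0.306, adjusted p = 0.044) in PBMC by limma. The call for PBMC was lost without any 1 of control replicates 1, 3, 4 and 5 and of PBMC replicates 1, 2, 3 and 4 (adjusted p 0.0576 to 0.12), and with no filter on low values (0.08), with the 2 groups alone in the fit (0.0638) and with a pseudocount of 1 (0.0632). Between IF and control its adjusted p was 0.14.

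The N-type gene Cacna1b, also a neuronal channel, had group means of 0.133 ± 0.0161, 0.213 ± 0.0694, 0.250 ± 0.0454 and 0.342 ± 0.0788 TPM in groups control, IF, PBMC and PBMC-hCG, in this order. It was called higher by limma in PBMC (log2 fold change 0.58, SE 0.156, adjusted p = 0.0134) and in PBMC-hCG (0.90, SE 0.156, adjusted p = 0.000311) against control, with no overlap in either, and in PBMC-hCG against IF (0.50, SE 0.156, adjusted p = 0.0431), with 4 of 5 libraries above all IF libraries. The last of these calls was lost without any 1 of IF replicates 2, 3, 4 and 5 and of PBMC-hCG replicates 2, 3, 4 and 5 (adjusted p 0.0537 to 0.137), and with libraries scaled to a common median (0.0664), with no filter on low values (0.0866), with the 2 groups alone in the fit (0.0843), with a pseudocount of 0.01 (0.051) and with quantile normalization (0.125). The neuronal P/Q-type gene Cacna1a, between 2.59 and 4.65 TPM over the 20 libraries, and the second L-type gene Cacna1d, between 4.06 and 9.67 TPM, were called in none of the 6 comparisons. Summed over the 10 pore genes, the level was 50.2 ± 7.36 TPM in control, 70.9 ± 8.97 TPM in IF, 79.3 ± 8.76 TPM in PBMC and 71.6 ± 8.56 TPM in PBMC-hCG mice. The lowest library of an RU486-treated mouse (61.2 TPM) lay above the highest control library (57.1 TPM).

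**Figure D1:**
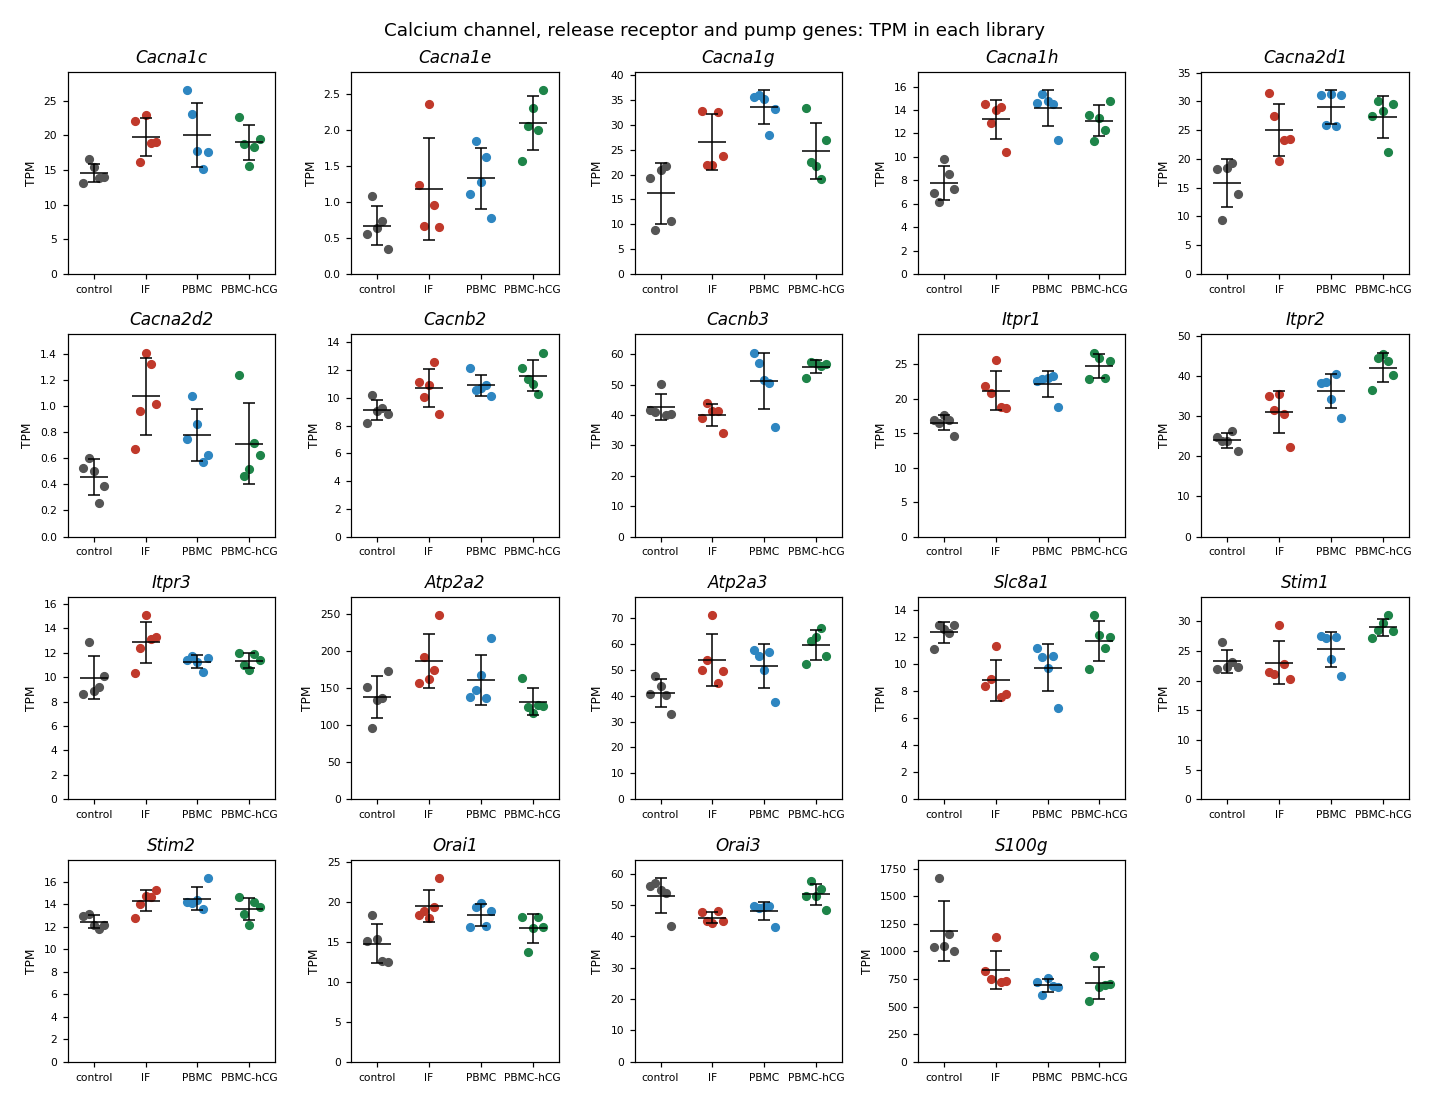
TPM (vertical axes, starting at 0) of 19 genes in each of the 20 libraries, by group, with 1 panel per gene. Points are libraries, in the order of their replicate numbers, and the line with bars is the mean ± SD of 5 libraries. In the panel of Cacna1h the control libraries lie between 6.16 and 9.83 TPM, below all others, and in that of S100g control replicate 2 reaches 1665 TPM.

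The auxiliary α2δ subunits bring channels to the cell surface, and Cacna2d1 (gene ID 12293, chr5:15934264-16374511) was the most abundant of them. Its level was 18.3, 9.31, 18.4, 19.3 and 13.9 TPM in control and 31.5, 27.5, 19.6, 23.3 and 23.4 TPM in IF mice. In the PBMC and PBMC-hCG groups it was 31.1, 25.9, 31.3, 25.8 and 31.1 TPM and 27.4, 30.1, 28.3, 21.1 and 29.5 TPM. All 15 libraries of RU486-treated mice exceeded the 5 control libraries, the nearest being IF replicate 3, and control replicate 2 was the lowest of all. Limma gave log2 fold changes against control of 0.69 (SE 0.17, adjusted p = 0.00673) for IF, 0.91 (SE 0.17, adjusted p = 0.000843) for PBMC and 0.82 (SE 0.17, adjusted p = 0.00141) for PBMC-hCG. The limma call for IF was lost with the 2 groups alone in the fit (adjusted p = 0.0509). Cacna2d2 (gene ID 56808, chr9:107399733-107529346) was scarce, with 0.529, 0.603, 0.504, 0.261 and 0.386 TPM in control and 0.676, 0.961, 1.41, 1.32 and 1.01 TPM in IF mice. Its values were 0.752, 1.08, 0.867, 0.572 and 0.628 TPM in PBMC and 1.24, 0.462, 0.520, 0.719 and 0.627 TPM in PBMC-hCG mice. Every IF library lay above every control library, and the PBMC and PBMC-hCG libraries overlapped both groups. The log2 fold change by limma was 1.08 (SE 0.246, adjusted p = 0.00396) for IF against control. In PBMC mice it was 0.67 against control with an adjusted p of 0.0651. Cacna2d4 had group means of 0.0943 ± 0.0203, 0.353 ± 0.201, 0.229 ± 0.111 and 0.260 ± 0.0543 TPM. Limma called it higher than control in IF (log2 fold change 1.12, SE 0.245, adjusted p = 0.00298), PBMC (0.71, SE 0.245, adjusted p = 0.0477) and PBMC-hCG (0.88, SE 0.245, adjusted p = 0.0105), with no overlap in any of these. The limma call for PBMC was lost without any 1 of control replicates 1, 2, 3, 4 and 5 and of PBMC replicates 1, 2, 3 and 5 (adjusted p 0.0552 to 0.136), and with libraries scaled to a common median (0.0682), with no filter on low values (0.0914), with a pseudocount of 1 (0.158) and with quantile normalization (0.0847). That for PBMC-hCG was lost by limma with a pseudocount of 1 (adjusted p = 0.0539). Cacna2d3 lay between 0.544 and 1.15 TPM and was not called.

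The cytosolic β subunits assist folding and gating of the pore. Cacnb3 (gene ID 12297, chr15:98628436-98644536) was the most abundant, at 41.7, 40.9, 50.04, 39.95 and 40.4 TPM in control and 38.9, 43.9, 41.4, 41.2 and 34.2 TPM in IF mice. It reached 60.4, 57.03, 51.5, 50.5 and 36.2 TPM in the PBMC group and 52.2, 57.5, 57.03, 56.1 and 56.6 TPM in the PBMC-hCG group. The 5 PBMC-hCG libraries lay above all control and all IF libraries, while the PBMC group spread from below the control range to above it. Limma gave a log2 fold change of 0.49 (SE 0.106, adjusted p = 0.0258) for PBMC-hCG against IF and 0.40 (SE 0.106, adjusted p = 0.00848) against control. The first was lost without any 1 of IF replicates 2, 4 and 5 and of PBMC-hCG replicates 2, 3, 4 and 5 (adjusted p 0.0535 to 0.0922). In PBMC against IF its log2 fold change of 0.34 had an adjusted p of 0.623. Cacnb2 (gene ID 12296, chr2:14603861-14988811), the β subunit of the heart channel, measured 8.23, 10.2, 9.04, 9.25 and 8.83 TPM in control and 11.2, 10.1, 10.9, 12.6 and 8.84 TPM in IF mice. It measured 12.1, 10.5, 10.7, 10.95 and 10.1 TPM in PBMC and 12.2, 11.4, 10.98, 10.3 and 13.2 TPM in PBMC-hCG mice. All PBMC-hCG libraries lay above the control libraries, the nearest being replicate 4. Only the PBMC-hCG comparison with control was called by limma, at 0.35 (SE 0.0938, adjusted p = 0.00906). Cacnb1 (between 9.18 and 15.3 TPM) and Cacnb4 (between 0.160 and 1.46 TPM) were called in no comparison. For Cacnb4, IF against control had a log2 fold change of -0.996, with an unadjusted p of 0.0164 and an adjusted p of 0.0668 by limma. Its IF libraries lay below all control libraries in 3 of 5 cases. Of Cacnb4, 16% of the exon bases overlap a gene on the opposite strand.

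All 3 receptors for inositol trisphosphate, which open the store of the endoplasmic reticulum after receptor signalling, were called higher in IF than in control mice. The most abundant was Itpr2 (gene ID 16439, chr6:146108299-146502258), at 24.8, 23.8, 23.9, 26.4 and 21.3 TPM in control and 35.1, 31.5, 35.5, 30.6 and 22.4 TPM in IF mice. It was 38.3, 38.7, 34.4, 40.5 and 29.6 TPM in PBMC and 36.6, 44.4, 45.7, 43.7 and 40.3 TPM in PBMC-hCG mice. IF replicate 5 lay within the control range and the other 4 IF libraries above it, and all PBMC and PBMC-hCG libraries exceeded the control libraries. By limma, Itpr2 was higher than in control by 0.35 (SE 0.112, adjusted p = 0.03) on the log2 scale in IF, 0.59 (SE 0.112, adjusted p = 0.001) in PBMC and 0.81 (SE 0.112, adjusted p = 4.22e-05) in PBMC-hCG mice. It was also higher in PBMC-hCG than in IF mice by limma, by 0.46 (SE 0.112, adjusted p = 0.0287). The IF call was lost without any 1 of control replicates 3 and 5 and of IF replicates 1, 2, 3 and 4 (adjusted p 0.0504 to 0.0771), and with the 2 groups alone in the fit (0.0857). The call of PBMC-hCG against IF was lost without any 1 of IF replicates 2, 4 and 5 and of PBMC-hCG replicates 2, 3, 4 and 5 (adjusted p 0.0535 to 0.0981). The group means ran 24.03, 31.01, 36.3 and 42.1 TPM. The neighbours IF and PBMC (adjusted p = 0.731) and PBMC and PBMC-hCG (adjusted p = 0.326) did not pass limma's test. Itpr1 (gene ID 16438, chr6:108213083-108551116), the form best known from smooth muscle and cerebellum, was 16.9, 16.5, 17.6, 16.9 and 14.6 TPM in control and 21.8, 20.9, 25.7, 18.8 and 18.7 TPM in IF mice. In PBMC mice it was 22.6, 22.9, 22.9, 23.3 and 18.8 TPM and in PBMC-hCG mice 22.8, 26.7, 25.98, 22.99 and 25.5 TPM. No library of an RU486-treated mouse overlapped the control range. Its log2 fold change against control was 0.35 (SE 0.0866, adjusted p = 0.007), 0.42 (SE 0.0866, adjusted p = 0.00208) and 0.58 (SE 0.0866, adjusted p = 8.25e-05) for IF, PBMC and PBMC-hCG by limma. Each was called in all 10 leave-one-out fits.

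Itpr3 (gene ID 16440, chr17:27057002-27122223), the form common in epithelia, was 8.64, 12.9, 8.89, 9.23 and 10.1 TPM in control and 10.3, 12.4, 15.05, 13.1 and 13.3 TPM in IF mice. It was 11.4, 11.7, 11.2, 10.4 and 11.6 TPM in PBMC and 12, 10.97, 10.6, 11.9 and 11.4 TPM in PBMC-hCG mice. Control replicate 2 was the highest control library and overlapped the IF range, where 3 of 5 libraries lay above it. Limma called it higher in IF than in control (log2 fold change 0.37, SE 0.105, adjusted p = 0.0158), and in no other comparison. The call was made in all 10 leave-one-out fits and was lost with the 2 groups alone in the fit (adjusted p = 0.0967) by limma. The summed level of the 3 receptors was 50.5 ± 2.83 TPM in control, 65.0 ± 7.91 TPM in IF, 69.7 ± 5.82 TPM in PBMC and 78.3 ± 4.43 TPM in PBMC-hCG mice. Ryanodine receptors, which release calcium on calcium, were far scarcer and none was called in the 6 comparisons. Ryr3 was the most abundant, between 2.77 and 5.27 TPM. The heart form Ryr2 lay between 0.205 and 1.11 TPM and the skeletal muscle form Ryr1 between 0.0864 and 0.242 TPM. For Ryr2, PBMC against IF had a log2 fold change of 0.57 with an unadjusted p of 0.0478 and an adjusted p of 0.731 by limma.

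The pumps of the endoplasmic reticulum, which refill the store, were dominated by Atp2a2 (gene ID 11938, chr5:122453513-122502225). It stood at 151, 96.3, 133, 137 and 173 TPM in control and 157, 191, 162, 174 and 248 TPM in IF mice. The PBMC libraries had 138, 148, 167, 136 and 217 TPM and the PBMC-hCG libraries 164, 124, 116, 128 and 126 TPM. IF replicate 5 and PBMC replicate 5 were the highest of their groups, and 4 of 5 PBMC-hCG libraries lay below every IF library. Limma called it lower in PBMC-hCG than in IF mice, with a log2 fold change of -0.49 (SE 0.157, adjusted p = 0.046), while IF against control gave 0.44 with an adjusted p of 0.0513. The call was lost without any 1 of IF replicates 2, 4 and 5 and of PBMC-hCG replicates 2, 3, 4 and 5 (adjusted p 0.0788 to 0.15), and with no filter on low values (0.0752) and with no variance trend (0.0545). Atp2a3 (gene ID 53313, chr11:72961169-72993043), the pump of epithelia, endothelium and blood cells, was 40.6, 47.7, 43.7, 40.2 and 32.9 TPM in control and 49.9, 53.8, 71, 44.9 and 49.6 TPM in IF mice. In PBMC mice it was 57.5, 55.5, 49.8, 57 and 37.5 TPM and in PBMC-hCG mice 52.2, 60.97, 62.9, 66.2 and 55.4 TPM. The PBMC-hCG libraries lay entirely above the control libraries, and IF replicate 4 within the control range. Limma called it higher than in control in PBMC-hCG (0.54 on the log2 scale, SE 0.13, adjusted p = 0.00405) and IF mice (0.38, SE 0.13, adjusted p = 0.0398). The IF call was lost without any 1 of control replicates 1, 3, 4 and 5 and of IF replicates 2, 3 and 5 (adjusted p 0.0512 to 0.11), and with no filter on low values (0.064), with the 2 groups alone in the fit (0.0783) and with quantile normalization (0.0913). Atp2a1, the pump of skeletal muscle, did not exceed 0.362 TPM. In the annotation, 21.9% of its exon bases overlap Rabep2 on the opposite strand.

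The pumps of the plasma membrane, which expel calcium from the cell, were not called in any of the 6 comparisons. Their most abundant forms were Atp2b1, from 39.1 to 59.4 TPM, and Atp2b4, from 31.3 to 57.5 TPM, with Atp2b2 between 2.19 and 7.83 TPM. Slc8a1 (gene ID 20541, chr17:81373105-81738387), which exchanges calcium for sodium across the same membrane, was 11.1, 12.9, 12.6, 12.3 and 12.9 TPM in control and 8.39, 8.91, 11.4, 7.60 and 7.78 TPM in IF mice. In PBMC mice it was 11.2, 10.5, 9.70, 10.6 and 6.73 TPM and in PBMC-hCG mice 9.63, 13.6, 12.1, 11.2 and 12.01 TPM. IF replicate 3 was the only IF library within the control range, the other 4 lying below it. PBMC-hCG replicate 1 was the only one of its group below the control range. By limma Slc8a1 was lower in IF than in control mice, with a log2 fold change of -0.50 (SE 0.133, adjusted p = 0.0114), and was so in all 10 leave-one-out fits. It was higher in PBMC-hCG than in IF mice by limma (0.41, SE 0.133, adjusted p = 0.0469), with 3 of 5 libraries above all IF libraries. The second call was lost without any 1 of IF replicates 1, 2, 4 and 5 and of PBMC-hCG replicates 2, 3, 4 and 5 (adjusted p 0.0681 to 0.139), and with libraries scaled to a common median (0.0522), with no filter on low values (0.071), with no variance trend (0.0505) and with the 2 groups alone in the fit (0.0556). Against control, the difference was -0.36 in PBMC (adjusted p = 0.0657) and -0.08 in PBMC-hCG mice (adjusted p = 0.675) by limma.

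When the store empties, STIM proteins of the reticulum open ORAI channels of the plasma membrane. Stim1 (gene ID 20866, chr7:102261514-102437319) was 21.9, 26.6, 22.3, 23.1 and 22.3 TPM in control and 21.5, 21.2, 29.4, 22.8 and 20.3 TPM in IF mice. It was 27.5, 27.2, 23.7, 27.3 and 20.8 TPM in PBMC and 27.3, 28.6, 29.7, 31.01 and 28.4 TPM in PBMC-hCG mice. All PBMC-hCG libraries lay above the control range, and IF replicate 3 stood out above its group. Limma called Stim1 higher in PBMC-hCG than in IF (0.34 on the log2 scale, SE 0.0959, adjusted p = 0.0343) and than in control mice (0.32, SE 0.0959, adjusted p = 0.0163). Of the 5 PBMC-hCG libraries, 2 lay above all IF libraries. The first call was lost without any 1 of IF replicates 2, 4 and 5 and of PBMC-hCG replicates 2, 3, 4 and 5 (adjusted p 0.0623 to 0.113), and with no filter on low values (0.0541). Stim2 (gene ID 116873, chr5:53998523-54121057), which senses small changes of the store, was 12.99, 13.1, 12.1, 11.8 and 12.2 TPM in control and 12.8, 14.03, 14.8, 14.6 and 15.3 TPM in IF mice. The PBMC group had 14.2, 14.1, 14.4, 13.6 and 16.3 TPM and the PBMC-hCG group 14.7, 13.1, 12.2, 14.2 and 13.7 TPM of it. The PBMC libraries did not overlap the control libraries, whereas IF replicate 1 did. Its differences from control were small, 0.20 (SE 0.0698, adjusted p = 0.0494) in IF and 0.22 (SE 0.0698, adjusted p = 0.0338) in PBMC on the log2 scale by limma. The IF call was lost without any 1 of control replicates 1, 3, 4 and 5 and of IF replicates 2, 3, 4 and 5 (adjusted p 0.0563 to 0.115), and with libraries scaled to a common median (0.0962), with no filter on low values (0.0502), with the 2 groups alone in the fit (0.114), with a pseudocount of 0.01 (0.0506) and with quantile normalization (0.111). The PBMC call was lost without any 1 of control replicates 3, 4 and 5 and of PBMC replicates 1, 3 and 5 (adjusted p 0.0503 to 0.0818), and with libraries scaled to a common median (0.126), with the 2 groups alone in the fit (0.0878) and with quantile normalization (0.116).

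Of the 3 ORAI genes, Orai1 was called higher and Orai3 lower in IF than in control mice, and Orai2 was not called in any comparison. Orai1 (gene ID 109305, chr5:123015074-123030452) was 15.1, 18.4, 15.3, 12.6 and 12.4 TPM in control and 18.4, 18.9, 18.01, 19.4 and 22.98 TPM in IF mice. It was 16.9, 19.4, 19.9, 16.96 and 18.8 TPM in PBMC and 18.1, 13.7, 16.7, 18.2 and 16.8 TPM in PBMC-hCG mice. Control replicate 2 was the highest control library, at the level of the lower IF libraries, and IF replicate 5 was the highest of all. Limma called Orai1 higher than in control in IF (0.41 on the log2 scale, SE 0.105, adjusted p = 0.00866) and in PBMC mice (0.33, SE 0.105, adjusted p = 0.0346), with 4 and 3 of 5 libraries above all control libraries. The IF call was made in all 10 leave-one-out fits. The PBMC call was lost without any 1 of control replicates 1, 4 and 5 and of PBMC replicates 2, 3 and 5 (adjusted p 0.0503 to 0.0958), and with libraries scaled to a common median (0.0922), with the 2 groups alone in the fit (0.0855) and with quantile normalization (0.103). Orai3 (gene ID 269999, chr7:127769815-127775150), the most abundant of the 3, was 55.9, 57.04, 54.7, 53.9 and 43.2 TPM in control and 47.6, 44.8, 44.3, 48.2 and 44.8 TPM in IF mice. In PBMC mice it was 49.8, 49.1, 49.3, 49.7 and 42.9 TPM and in PBMC-hCG mice 52.8, 57.6, 52.9, 55.1 and 48.4 TPM. Control replicate 5 lay below all IF libraries and the other 4 control libraries above them. The PBMC-hCG libraries lay entirely above the IF libraries. Limma called Orai3 lower in IF than in control mice (-0.20, SE 0.0695, adjusted p = 0.0473) and higher in PBMC-hCG than in IF mice (0.21, SE 0.0695, adjusted p = 0.0481). The first was lost without any 1 of control replicates 1, 2, 3 and 4 and of IF replicates 1, 2, 3, 4 and 5 (adjusted p 0.0502 to 0.108), and with no filter on low values (0.0666), with no variance trend (0.0659) and with the 2 groups alone in the fit (0.124). The second was lost without any 1 of IF replicates 1, 2, 3, 4 and 5 and of PBMC-hCG replicates 2, 3, 4 and 5 (adjusted p 0.0536 to 0.131), and with libraries scaled to a common median (0.106), with no filter on low values (0.0729) and with no variance trend (0.0631). Orai2 lay between 7.87 and 12.7 TPM.

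S100g (gene ID 12309, chrX:162961992-162964599) buffers calcium in the cytosol of the epithelium. It was 1039.5, 1665, 1053, 1159 and 1005 TPM in control and 826, 747, 1134, 728 and 732 TPM in IF mice. It was 728, 607, 756, 691 and 681 TPM in PBMC and 554, 956, 674, 694 and 706 TPM in PBMC-hCG mice. All PBMC and PBMC-hCG libraries lay below all control libraries, and IF replicate 3 was the only IF library within the control range. Control replicate 2 was far above the others. The log2 fold change against control by limma was -0.50 (SE 0.151, adjusted p = 0.0225) in IF, -0.75 (SE 0.151, adjusted p = 0.00164) in PBMC and -0.72 (SE 0.151, adjusted p = 0.00156) in PBMC-hCG mice. The IF call was lost without any 1 of IF replicates 2, 4 and 5 (adjusted p 0.0528 to 0.0575), and with the 2 groups alone in the fit (0.0707). The other calls were made in all 10 leave-one-out fits of each comparison. The TRPV channels include the epithelial calcium channel gene Trpv6, with group means of 20.9 ± 7.88, 21.9 ± 6.55, 12.3 ± 2.01 and 13.2 ± 3.78 TPM in control, IF, PBMC and PBMC-hCG mice. Trpv6 was not called. Its adjusted p by limma was 0.0547 for PBMC against control (log2 fold change -0.70), 0.0571 for PBMC-hCG against IF (-0.72) and 0.623 for PBMC against IF (-0.79). Trpv4, a channel opened by stretch and warmth, ranged from 6.08 to 34.4 TPM and was not called either (IF against control, 0.78, adjusted p = 0.14, and PBMC-hCG against IF, -0.94, with an unadjusted p of 0.0188 and adjusted p = 0.0816 by limma). The same held for Trpv2, between 11.6 and 16.3 TPM. Of the 7 members left out by the filter on low values, only Trpv3 passed in the fit without it, and it is given here for that reason. It had 1 library at 0, and means of 0.153 ± 0.0779 TPM in control and 0.0538 ± 0.0354 TPM in IF mice, around the pseudocount of 0.1. In the fit with no filter it was lower in IF than in control mice (log2 fold change -0.70, adjusted p = 0.0334 by limma), with 3 of 5 IF libraries below all control libraries.

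**Figure D2:**
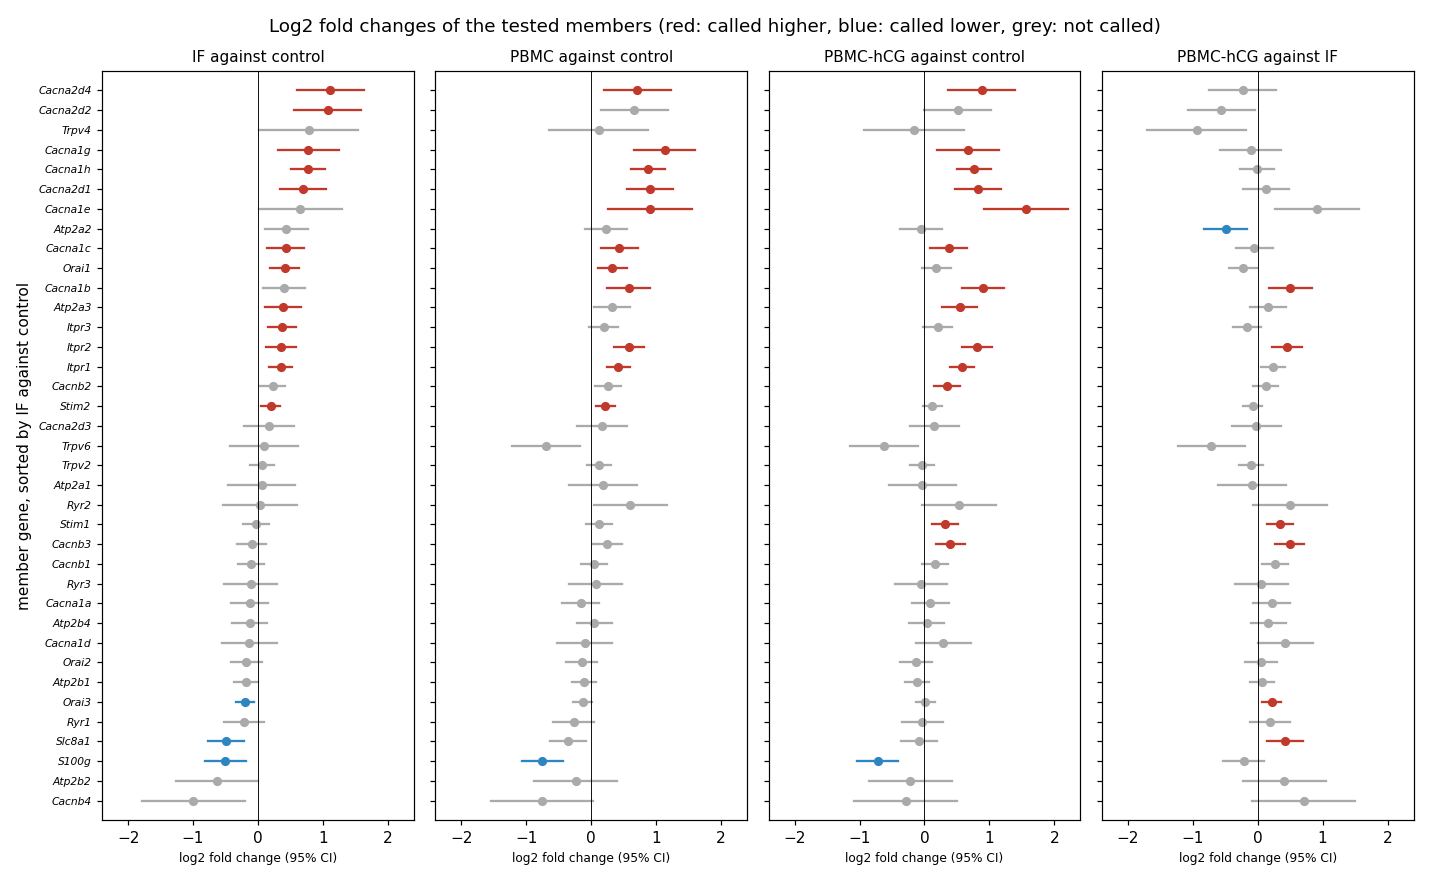
Log2 fold changes (horizontal axes) with 95% confidence intervals from limma of the 37 tested genes, 1 row per gene in the order of IF against control, in 4 comparisons. Red marks genes called higher and blue those called lower, and Cacna2d4 (1.12) and Cacna2d2 (1.08) have the largest values called in IF against control.

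The 8 lists of other genes of calcium handling held 140 genes of which 115 were tested. Between IF and control, 22 of the 115 were called higher and 15 lower by limma, 32.2% in all against 21.9% of all genes, with a median log2 fold change of 0.04. Of all genes, 13.4% were called higher and 8.53% lower, and no list was tested against these shares. The partners of the store (20 tested) had 1 gene higher (13.4% of all genes) and 7 lower (8.53% of all genes), with a median of -0.18. Among them was Mrvi1, a partner of the inositol trisphosphate receptor in smooth muscle, with 55.6, 77.9, 54.8, 55.1 and 57.98 TPM in control and 117, 123.4, 159.7, 141 and 123.1 TPM in IF mice. Its log2 fold change was 1.14 (SE 0.115, adjusted p = 1.61e-06) by limma, with no overlap. Casq2, the calcium store protein of heart muscle, had 3.88, 1.59, 5.29, 4.80 and 6.04 TPM in control and 1.58, 1.94, 0.881, 1.80 and 1.75 TPM in IF mice. Srl, a protein of the reticulum lumen, had 3.97, 1.87, 4.62, 4.48 and 3.89 TPM in control and 1.75, 2.06, 1.83, 1.91 and 1.44 TPM in IF mice. Their log2 fold changes by limma were -1.30 (SE 0.28, adjusted p = 0.00247) and -0.97 (SE 0.206, adjusted p = 0.00223). Control replicate 2 had the lowest control value of both, and 2 of 5 IF libraries of Casq2 and 3 of 5 of Srl lay below it. Of 11 tested γ subunits and channel regulators, 3 rose (13.4% of all genes) and 1 fell (8.53% of all genes). The latter was Cacng4 (log2 fold change -1.56 by limma, SE 0.235, adjusted p = 0.000106). Those that rose included Stac2 (0.64, SE 0.188, adjusted p = 0.0196) and the channel-inhibiting small GTPase Rrad (0.45, SE 0.118, adjusted p = 0.0105) by limma. None of these 3 genes had overlapping groups.

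Of 17 other entry channels, 6 rose (13.4% of all genes) and 0 fell (8.53% of all genes) by limma. Among those that rose by limma were the receptor-operated channel Trpc4 (log2 fold change 0.63, SE 0.159, adjusted p = 0.00831) and the ATP-gated channel P2rx7 (0.67, SE 0.173, adjusted p = 0.00936), the IF libraries above all control libraries being 4 and 3 of 5. Of 9 other extruders and organelle pumps, 2 rose (13.4% of all genes) and 2 fell (8.53% of all genes). Among them were the Golgi pumps Atp2c2 (-1.61, SE 0.457, adjusted p = 0.0161) and Atp2c1 (0.22, SE 0.0451, adjusted p = 0.00148) and the mitochondrial exchanger Slc8b1 (0.57, SE 0.193, adjusted p = 0.0422) by limma. Of the 5 IF libraries, 2 lay below all control libraries for Atp2c2, 5 above them for Atp2c1 and 1 above them for Slc8b1. The 8 genes of mitochondrial uptake had a median log2 fold change of 0.13. Of 8 tested cytosolic buffers and genes of vitamin D handling, Calb1, the larger relative of S100g, was the only one called by limma (lower, -1.69, SE 0.48, adjusted p = 0.0165, with 8.53% of all genes called lower). Its values were 25.2, 28.6, 34.9, 38.9 and 7.89 TPM in control and 21.4, 4.51, 15.2, 5.58 and 2.53 TPM in IF mice, and control replicate 5 lay within the IF range, with 3 IF libraries below it. PBMC mice had 20, 16.9, 13.1, 22.8 and 13.6 TPM and PBMC-hCG mice 17.4, 33.1, 31.9, 33.4 and 29.8 TPM of it. Calb2, a buffer of the same list, was not among the tested genes because 1 PBMC-hCG library was at 0, and it was chosen here after its values were seen. It had 8.65 ± 1.74 TPM in control (6.57 to 10.9 TPM), 0.753 ± 0.428 TPM in IF, 0.915 ± 0.533 TPM in PBMC and 0.797 ± 0.607 TPM in PBMC-hCG mice, with no library of an RU486-treated mouse above 1.59 TPM. In the limma fit with no filter on low values its log2 fold change between IF and control was -3.53 (SE 0.642, adjusted p = 0.00106), a larger fall than that of Calb1, with all 5 IF libraries below all control libraries. Of 25 calcium decoders, 5 rose (13.4% of all genes) and 2 fell (8.53% of all genes). Among them were the calcineurin subunit Ppp3ca (0.72, SE 0.108, adjusted p = 0.000102), its feedback inhibitor Rcan1 (0.56, SE 0.176, adjusted p = 0.0272) and Camkk1 (-0.64, SE 0.181, adjusted p = 0.0163) by limma. The groups did not overlap for Ppp3ca and Rcan1, and 2 of 5 IF libraries lay below all control libraries for Camkk1. Of 17 genes of phospholipase C and inositol trisphosphate handling, 4 rose (13.4% of all genes) and 2 fell (8.53% of all genes). Among them were Plcl2 (-0.95, SE 0.103, adjusted p = 3.16e-06), Plce1 (0.92, SE 0.098, adjusted p = 2.78e-06) and Itpkc (0.75, SE 0.144, adjusted p = 0.000978) by limma, none of these 3 with overlapping groups. Over the 8 lists, limma called 0 of 115 for PBMC against IF and for PBMC-hCG against PBMC, where 1271 and 3024 of all genes had an unadjusted p under 0.05. It called 13 for PBMC-hCG against IF (7 higher), 11.3% against 13.6% of all genes. It called 35 for PBMC against control (26 higher), 30.4% against 19.5%, and 48 for PBMC-hCG against control (32 higher), 41.7% against 31.8%.

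Markers of the cell types of the horn were read beside these genes, and their part in the results was not tested. The tissue expressed markers of muscle, stroma, epithelium and glands. The 4 endothelial markers were all called higher by limma in IF, in PBMC and in PBMC-hCG than in control mice (13.4%, 12.8% and 20.2% of all genes). Their summed level, led by Pecam1, was 331, 247, 326, 333 and 265 TPM in control and 407, 412, 413, 392.3 and 385 TPM in IF mice. It was 389, 419.9, 403, 430.4 and 374 TPM in PBMC and 450.2, 412, 468, 435 and 411 TPM in PBMC-hCG mice, with no overlap between control and the rest. The 8 smooth muscle markers, led by Tagln, summed to 6924, 6250.2, 9163, 8426 and 11531 TPM in control and 6752, 6446, 6298, 7629 and 7765 TPM in IF mice. In PBMC mice their sum was 7514, 7337, 7016, 6107 and 6548 TPM and in PBMC-hCG mice 6397, 5749.7, 5072, 5734 and 5786 TPM. Of the 8, 1 was called lower in IF (8.53% of all genes) and 5 in PBMC-hCG (11.6% of all genes) against control. In both comparisons 0 were called higher (13.4% and 20.2% of all genes). The 4 gland markers, led by Prss29, summed to 1439.7, 23928, 1234, 1525 and 7731 TPM in control and 2881, 2809, 12201, 2625 and 6211 TPM in IF mice. Their sums were 1657, 3212, 2907, 3733 and 2415 TPM in PBMC and 4108, 4003, 3774, 10174 and 4050.2 TPM in PBMC-hCG mice. Control replicate 2 and IF replicate 3, the highest of their groups here, were also the highest of their groups for S100g. In the PBMC and PBMC-hCG groups replicate 4 was the highest for gland markers, whereas replicate 3 and replicate 2 were the highest for S100g, and control replicate 5, high for gland markers, was the lowest control library for S100g. Of the 4 gland markers, 1 was called lower in IF than in control mice (8.53% of all genes).

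The 6 epithelial markers, led by Krt18, summed to 856, 1169.9, 958, 936 and 673 TPM in control and 971, 894, 1163, 896 and 833 TPM in IF mice. In PBMC mice they summed to 952, 1034, 944, 1066 and 1156 TPM and in PBMC-hCG mice to 1006, 1362, 1270, 1246 and 1071 TPM. Of these, 4 were called higher (13.4% of all genes) and 1 lower (8.53% of all genes) in IF than in control mice. The 6 stromal markers, led by Dcn, summed to 6809 ± 1469.6 and 8219 ± 754 TPM in control and IF mice. Of these 6, 2 were called higher (13.4% of all genes) and 1 lower (8.53% of all genes). The 6 leukocyte markers, led by Adgre1, summed to 96.9 ± 9.35, 116 ± 10.1, 112 ± 9.52 and 124 ± 7.73 TPM in control, IF, PBMC and PBMC-hCG mice. Limma called 2 of these higher in IF than in control mice (13.4% of all genes). It called 0 between PBMC and IF (0% of all genes), where 1271 of all genes had an unadjusted p under 0.05. Markers of striated muscle, led by Acta1, summed to 354, 129, 373, 376 and 394 TPM in control and 116, 99.4, 88.2, 149.7 and 124 TPM in IF mice. Of the 4 tested, 1 was called lower (8.53% of all genes), while Myh4 was at 0 in all libraries. Red cell markers, led by Hbb-bs, summed to 929 ± 318, 1078 ± 452, 997 ± 483 and 521 ± 224 TPM in the 4 groups in the same order. Of the 5, 2 were called lower in PBMC-hCG than in IF mice (5.99% of all genes). Neuronal markers, led by Stmn2, summed to 10.5 ± 1.36 and 12.4 ± 1.07 TPM in control and IF mice. Of 3 tested, 1 was called higher (13.4% of all genes), and Elavl4 and Snap25 were under 0.1 TPM on average. The fat markers, led by Cfd, reached 340.3 TPM in control replicate 2 and 81.1 TPM in IF replicate 5, and none could be tested. The oviduct markers, led by Ovgp1, summed to 21.8 ± 2.66 TPM in control and 12.7 ± 5.71 TPM in IF mice, with 1 of 2 called lower (8.53% of all genes).

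Promoter windows, from 250 bases before to 50 bases after a listed start, were read from RefSeq (GRCm38.p6) because several members changed after a steroid receptor antagonist. Entries were found for 36 of the 44 genes, 49 windows in all, and for 16 of the 21 members called in any comparison. The arm GGTCA of the estrogen response element, searched on both strands, was in 17 of the 49 windows and in 40.5% of all 32851 promoters. Both arms with 3 bases between, GGTCA and TGACC, were in 0 windows and in 0.07% of promoters. The arm AGAACA of the element shared by progesterone and glucocorticoid receptors was in 9 windows and in 19% of all promoters. Both of its arms with 3 bases between, AGAACA and TGTTCT, were in 0 windows and in 0.00913% of promoters. Among the called members, Cacna1b, Cacna1c, Cacna2d2, Orai3 and S100g had GGTCA, and Cacna1c and Cacnb2 had AGAACA. The windows of S100g, which fell, and of Cacna1c and Cacna2d2, which rose, are shown 5′ to 3′ along the gene, with the arms in capitals. A match describes these letters and is not a bound site. The S100g window is chrX:162964550-162964849, strand minus, with GGTCA at bases 32 to 36 as shown and, in reverse complement, at bases 144 to 148. The Cacna1c window is chr6:118757925-118758224, strand minus, 1 of 3 windows of this gene and within its annotated span. It has AGAACA at bases 224 to 229 as shown and, in reverse complement, at bases 218 to 223. The Cacna2d2 window is chr9:107399630-107399929, strand plus, with GGTCA in reverse complement at bases 100 to 104, and its listed start lies within the annotated gene.
S100g: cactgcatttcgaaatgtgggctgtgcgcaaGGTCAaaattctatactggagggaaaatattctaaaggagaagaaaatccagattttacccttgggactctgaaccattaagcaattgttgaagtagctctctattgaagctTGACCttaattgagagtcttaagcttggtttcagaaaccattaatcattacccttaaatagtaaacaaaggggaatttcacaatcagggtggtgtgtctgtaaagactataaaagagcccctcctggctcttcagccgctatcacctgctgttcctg
Cacna1c: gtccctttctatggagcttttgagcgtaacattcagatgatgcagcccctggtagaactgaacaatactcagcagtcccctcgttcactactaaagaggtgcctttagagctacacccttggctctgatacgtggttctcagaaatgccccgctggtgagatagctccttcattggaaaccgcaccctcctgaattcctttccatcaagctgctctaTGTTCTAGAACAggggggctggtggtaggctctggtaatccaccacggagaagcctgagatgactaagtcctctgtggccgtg
Cacna2d2: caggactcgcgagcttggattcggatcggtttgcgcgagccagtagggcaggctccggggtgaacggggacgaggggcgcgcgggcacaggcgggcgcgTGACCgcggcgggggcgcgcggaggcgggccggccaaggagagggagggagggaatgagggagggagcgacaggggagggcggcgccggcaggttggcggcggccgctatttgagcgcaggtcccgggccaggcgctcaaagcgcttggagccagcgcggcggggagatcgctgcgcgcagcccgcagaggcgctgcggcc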

How the data were processed

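The TPM values were deposited by the authors, who trimmed reads with Trimmomatic, aligned them to mm10 with HISAT2 and computed expression with StringTie; the versions were not given in the sources used here, nor whether strand was used in counting. The authors compared counts with edgeR, which was not used here. Library totals in TPM lay between 999989 and 999999, so that depth is unknown. The group injected with medium was not analysed here.

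All 20 libraries entered 1 fit with limma 3.58.1 (R 4.3.3) on log2(TPM + 0.1), with a variance trend, over the 18706 genes above 0 TPM in all libraries. Genes with a Benjamini-Hochberg adjusted p under 0.05 within a comparison were called. The procedure was tested on simulated data. Tables were read with the R package data.table (version 1.17.8), and tables and plots were made with Python 3.11.15, pandas 2.3.3 and matplotlib 3.10.9.

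Members follow a rule on gene symbols. Values in every library were given for members called in at least 1 comparison with a highest group mean of at least 1 TPM and for S100g and Slc8a1, and group means or ranges for the rest. From the 8 pathway lists, at most 3 per list of the called genes with the largest change between IF and control and a mean of at least 1 TPM were named. Markers of myometrium, epithelium, gland, stroma, leukocyte, red cell, striated muscle, neuron, endothelium, adipocyte and oviduct were summed. Members and lists were chosen with earlier results of these data known. Alternatives were other pseudocounts and filters, quantile and median scaling, fits of 2 groups, no variance trend, a replicate term, a fold change criterion and leaving out each library.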

Additional observations from a re-analysis of the deposited data

Results flagged for a closer look

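The 19 genes given library by library were searched for a library far from the other 4 of its group, by the gap to its nearest neighbour over the whole range of the group (above 0.71). For a single group chance gives about 1 in 20. The 19 genes share the same 20 libraries, so that the tests are not independent and no excess over chance was measured. Of 76 groups tested, 12 had such a library. In the control group these were replicate 2 for S100g (1665 TPM, group median 1053 TPM) and for Stim1 (26.61 TPM, median 22.33 TPM), replicate 3 for Cacnb3 (50.04 TPM, median 40.87 TPM) and replicate 5 for Orai3 (43.19 TPM, median 54.75 TPM). In the IF group they were replicate 3 for S100g (1134 TPM, median 746.8 TPM) and for Stim1 (29.36 TPM, median 21.53 TPM) and replicate 5 for Orai1 (22.98 TPM, median 18.88 TPM). In the PBMC group replicate 5 was low for Cacna1h (11.48 TPM, median 14.62 TPM), Itpr1 (18.84 TPM, median 22.9 TPM) and Orai3 (42.94 TPM, median 49.3 TPM). In the PBMC-hCG group replicate 1 was high for Atp2a2 (163.8 TPM, median 126.3 TPM) and low for Cacnb3 (52.17 TPM, median 56.63 TPM). The cause of these values was not tested.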

How the results depend on the processing

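The number of members called was recomputed under each alternative. In the 4 comparisons that called any member, 66 of 80 counts stayed within 1.5 times the first value, but only 10 of 20 for PBMC-hCG against IF. For PBMC-hCG against IF, limma called 2 members in place of 7 with no filter on low values (2.65% of all genes in place of 13.6%) and 4 with no variance trend (11% of all genes). For IF against control, 7 in place of 15 were called with the 2 groups alone in the fit (12.8% of all genes in place of 21.9%). With a fold change of at least 2 and an unadjusted p under 0.05 as the criterion, limma gave 2 for IF against control (4.03% of all genes), 0 for PBMC-hCG against IF (2.31%), 1 for PBMC against control (3.34%) and 1 for PBMC-hCG against control (4.74%). Except for the last criterion, which asks for a larger change, the cause was not tested.

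With 1 library left out at a time, the count ranged from 10 to 19 for IF against control, from 8 to 17 for PBMC against control and from 12 to 16 for PBMC-hCG against control, each highest without control replicate 2 (19, 17 and 16). Without that library the share of all genes called was higher too, 26.7% in place of 21.9%, 24.7% in place of 19.5% and 40.1% in place of 31.8%. For PBMC-hCG against IF it ranged from 0 (without IF replicate 2, 4 or 5 or PBMC-hCG replicate 2, 3, 4 or 5) to 10 (without PBMC-hCG replicate 1, 22.2% of all genes), with 8 and 27% of all genes without IF replicate 3, and in the fits with 0 at most 0.182% of all genes were called; the cause was not tested. For PBMC against IF and for PBMC-hCG against PBMC it was 0 in each limma fit, where 4 and 3 members had an unadjusted p under 0.05 with all libraries.

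The 48 called fold changes gave 905 values under alternatives, of which 713 were called in the same direction, 192 were not called and 0 were reversed. Those not called were 69 of 132 for PBMC-hCG against IF, 56 of 283 for IF against control, 50 of 226 for PBMC against control and 17 of 264 for PBMC-hCG against control. The labels give replicate numbers and do not say that these pair mice, and no pairing was assumed. Over 30 pairs of libraries with the same number in different groups, r of the residuals ran from -0.247 to 0.457 with a median of -0.0097. Over 120 pairs with different numbers in different groups, it ran from -0.415 to 0.567 with a median of 0.00883. With the number as a term in the fit, 16 members were called for IF against control (22.2% of all genes), 8 for PBMC-hCG against IF (17.2%), 10 for PBMC against control (19.4%) and 14 for PBMC-hCG against control (32.5%). TPM carry no depth, so that the counting error of genes near 0 is unknown.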
